A study of Mus musculus with 6 samples.

Results

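The surface proteins that define a stem cell sort, and the genes used to label the same cells, were followed at the transcript level on the 6 arrays of this series. The list holds 10 genes, namely Kit, Ly6a, Slamf1, Cd48, Flt3, Cd34, Procr, Esam, Fgd5 and Cd27. Its members are the probe sets, the groups of short array probes that report 1 transcript, whose annotation names exactly 1 of these genes. By that rule 12 of 45101 probe sets were members. They report 9 of the 10 genes, among 18193 genes named in all, with 3 probe sets for Slamf1, 2 for Kit and 1 for each of the other genes. No probe set in the table used here carries the name Ly6a, which encodes Sca-1, so that gene is not analysed here.

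Haematopoietic stem cells (HSC) came from bone marrow of mice 6 to 8 weeks old, either Lig4mut or WT (wild type, Lig4+/+), which were littermates from Lig4mut/+ intercrosses. Both genotypes were sorted through the same gate, CD150+ CD48- KSL, and were measured on 3 Affymetrix arrays each. Lig4 encodes DNA ligase IV, which joins broken DNA ends, and the study asks what it means for the upkeep of HSC. The nature of the mutation and the number of mice behind each replicate are not stated in the labels, which call the replicates biological. If replicates are not separate animals, p-values measure only the spread between these samples.

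KSL cells carry the stem cell factor receptor Kit and the small surface antigen Sca-1 and lack the antigens of mature blood lineages. Within them, the SLAM receptor CD150 (Slamf1) together with absence of its relative CD48 enriches for HSC, while CD48, Flt3 and in the adult mouse CD34 appear on the multipotent progenitors that HSC give rise to. Procr, Esam and Fgd5 are used as further labels of HSC, and Cd27 is carried by HSC and early progenitors. The sort acts on protein at the cell surface, whereas the arrays measured RNA, so a gene of the gate could still differ between genotypes in its transcript. All probe sets of Kit and Slamf1, the positive markers of the gate that could be read, were above 3, the lowest value deposited on any array (the floor), in all 6 arrays. Only 5.59% to 6.54% of all probe sets were at the floor on an array, and Cd48 was above it too. A value above the floor therefore does not check the gate.

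Of the 12 probe sets, 1 lay apart between the genotypes, a probe set of Kit that was lower in all 3 Lig4mut arrays. None passed the threshold of 0.05 after adjustment over all probe sets (limma, Benjamini-Hochberg), which 0 of the 45037 probe sets tested did. At an unadjusted p under 0.05, limma gave 7954 probe sets, or 17.7% of all, and 1 of the 12 members. On the lower side the background was 5.56%, and the single Kit probe set was the only member there. The groups did not overlap for 23.8% of all probe sets and for 1 of the 12 members, and on the lower side for 7.35% of all. With 1 of 12, the members did not stand out from the background. The remaining members are given as values with their intervals.

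Levels are log2 values, quantile normalized across the arrays, and differences are Lig4mut minus WT on that scale. The brightness of a probe set depends on its probes, so levels were not compared between genes. In this scaling the median difference of all probe sets was 0.08. It was -0.04 in the values as deposited and 0.27 with arrays centred on their medians, so the differences of single probe sets also moved with the scaling. As deposited, the WT arrays had medians of 6.29 to 6.34 and the Lig4mut arrays 5.97 to 6.05. Lig4 itself, which checks the labels, read 7.53, 6.66 and 7.63 in the WT arrays (replicates 1, 2 and 3, the order kept throughout) and 4.97, 3.16 and 3.10 in the Lig4mut arrays, all below WT. The difference of -3.53 ± 0.62 (SE, n = 3 per genotype) had a limma adjusted p of 0.12. In Lig4mut replicates 2 and 3 it lay close to the floor, so the size of the difference may be understated. Its single probe set may or may not cover the mutated stretch.

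**Figure D1:**
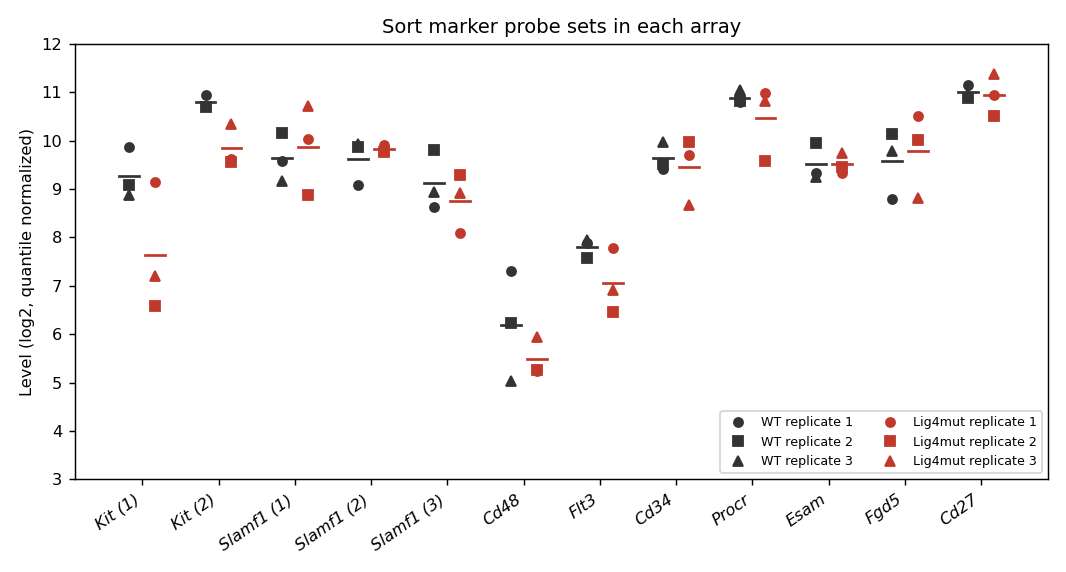
Level of each member probe set (log2, quantile normalized, vertical axis) in the 6 arrays, with WT in black and Lig4mut in red, symbols for replicates 1 to 3 and bars for group means. Kit (1) is 1415900_a_at and Kit (2) 1452514_a_at, and Slamf1 (1), (2) and (3) are 1425569_a_at, 1425570_at and 1425571_at. The red points lie below all black points for Kit (2) only.

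The start regions of 4 of these genes are shown so that the gene with the probe set that lay apart between the genotypes (Kit), the progenitor receptor with the next smallest p (Flt3) and the pair that the gate sets against each other (Slamf1 and Cd48) can be seen side by side. Each is the stretch of 250 bases before the transcription start in RefSeq, on the strand of the gene, in build GRCm38.p6. They are chr5:75574737-75574986 for Kit (plus strand, the first of its listed starts), chr5:147400490-147400739 for Flt3 (minus strand), chr1:171766882-171767131 for Slamf1 (plus strand) and chr1:171681742-171681991 for Cd48 (plus strand). Capitals mark matches on either strand to GGAAGT (the core bound by ETS factors), TGTGGT (bound by RUNX factors), GATAA (bound by the GATA family), GGGCGG (the GC box) or TATAAA (the box of some core promoters).
Kit: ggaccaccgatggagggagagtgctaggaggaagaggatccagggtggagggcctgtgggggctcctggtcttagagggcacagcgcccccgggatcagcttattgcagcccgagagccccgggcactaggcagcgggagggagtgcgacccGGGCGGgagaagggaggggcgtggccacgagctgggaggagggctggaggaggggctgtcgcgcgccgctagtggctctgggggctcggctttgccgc
Flt3: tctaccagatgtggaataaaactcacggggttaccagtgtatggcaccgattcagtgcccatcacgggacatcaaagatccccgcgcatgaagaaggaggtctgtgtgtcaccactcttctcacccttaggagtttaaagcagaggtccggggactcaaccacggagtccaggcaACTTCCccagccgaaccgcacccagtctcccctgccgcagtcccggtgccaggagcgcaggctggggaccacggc
Slamf1: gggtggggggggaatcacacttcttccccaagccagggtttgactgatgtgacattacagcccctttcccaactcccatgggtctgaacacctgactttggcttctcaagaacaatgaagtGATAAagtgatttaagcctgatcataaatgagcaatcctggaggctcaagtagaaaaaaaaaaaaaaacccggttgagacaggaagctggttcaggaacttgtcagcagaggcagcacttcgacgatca
Cd48: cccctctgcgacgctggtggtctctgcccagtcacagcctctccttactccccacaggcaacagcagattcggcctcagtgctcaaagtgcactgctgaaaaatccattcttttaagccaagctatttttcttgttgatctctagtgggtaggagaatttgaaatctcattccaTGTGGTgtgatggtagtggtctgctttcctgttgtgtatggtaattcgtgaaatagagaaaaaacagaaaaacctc
The Kit stretch held 1 GC box and none of the other 4 motifs, and Flt3 held 1 ETS core, Slamf1 1 GATA motif and Cd48 1 RUNX motif. RefSeq promoters were matched for 8 of the 10 genes, leaving out Ly6a and Esam. Of these 8, 1 held the ETS core against 20.0% of 27025 promoters, 1 the RUNX motif against 14.2%, 1 the GATA motif against 23.0%, 2 (Kit and Fgd5) the GC box against 32.9%, and 0 the last motif against 13.0%. Each stretch shown holds a single match, so none overlap, and a match of these letters describes the sequence and is not a measured site. The Kit stretch was 70.8% G or C, Flt3 59.2%, Slamf1 47.2% and Cd48 46.0%, with a median of 52.0% over all promoters. Kit and Flt3 had 17 and 13 CpG dinucleotides, Slamf1 and Cd48 had 3 and 4, and the median promoter had 6.

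Kit encodes the receptor tyrosine kinase for stem cell factor, the K of KSL. Probe set 1452514_a_at read 10.95, 10.70 and 10.73 in WT and 9.62, 9.56 and 10.35 in Lig4mut. The 3 Lig4mut arrays were all below the 3 WT arrays, with 0.35 between the nearest of them. The means were 10.79 ± 0.14 (SD, n = 3) and 9.84 ± 0.44, a difference of -0.95 ± 0.25 (SE; 95% interval -1.60 to -0.30), or 1.93-fold. The unadjusted limma p was 0.0134 and the adjusted p 0.177. Without any 1 array the difference stayed between -1.20 and -0.81, with limma p between 0.000812 and 0.0471 unadjusted. With arrays centred on their medians it was -0.61, with an unadjusted limma p of 0.0627 and an adjusted p of 0.271, which ends the call at the unadjusted level.

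The other Kit probe set, 1415900_a_at, differed by more but with a wide spread. It read 9.86, 9.09 and 8.87 in WT and 9.14, 6.58 and 7.21 in Lig4mut. Lig4mut replicate 1 lay within the WT range, while replicates 2 and 3 were below every WT array. The difference was -1.63 ± 0.75 (SE; 95% interval -3.55 to 0.29; limma adjusted p = 0.346). Without Lig4mut replicate 1 it was -2.38, with an unadjusted limma p of 0.00457 and an adjusted p of 0.125, and without Lig4mut replicate 2 it was -1.10. The probe sets thus differed in which Lig4mut array was nearest to WT, which was replicate 3 for 1452514_a_at and replicate 1 for 1415900_a_at. As the mean of both, Kit was at -1.29 ± 0.38 (limma adjusted p = 0.159). The gate itself selects cells that carry Kit protein, and within a bulk sample of such cells fewer cells rich in Kit RNA and less Kit RNA per cell cannot be told apart.

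Slamf1 encodes CD150, the positive SLAM marker of the gate and a homophilic receptor, and its transcript overlapped between genotypes in all 3 of its probe sets. Probe set 1425570_at read 9.08, 9.87 and 9.93 in WT and 9.91, 9.77 and 9.80 in Lig4mut. Its Lig4mut arrays lay within 0.14 of each other, and WT replicate 1 was the single low array. The difference was 0.20 ± 0.26 (SE; 95% interval -0.48 to 0.87), so a change of either sign within those bounds is compatible with the 6 arrays. Probe set 1425569_a_at read 9.58, 10.17 and 9.17 in WT and 10.04, 8.89 and 10.71 in Lig4mut. The highest and the lowest of its 6 values were both Lig4mut arrays, and the difference of 0.24 ± 0.55 had a 95% interval of -1.18 to 1.66. Probe set 1425571_at read 8.63, 9.81 and 8.94 in WT and 8.10, 9.28 and 8.91 in Lig4mut, a difference of -0.36 ± 0.45. The mean over the 3 probe sets was 0.02 ± 0.28 (limma adjusted p = 0.983).

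Cd48, which the gate excludes, encodes a glycosylphosphatidylinositol-anchored SLAM relative that binds the receptor encoded by Cd244a. Its probe set was above the floor in all 6 arrays too. It read 7.31, 6.22 and 5.04 in WT and 5.24, 5.25 and 5.95 in Lig4mut. The WT arrays spanned 2.27, and WT replicate 3 lay near Lig4mut replicates 1 and 2. As deposited these arrays read 5.16, 5.13 and 5.09. The difference was -0.72 ± 0.63 (SE; 95% interval -2.34 to 0.91; limma adjusted p = 0.618). It depended on WT replicate 1, the highest array, without which it was -0.15. Without WT replicate 3 it was -1.29 (limma, unadjusted p of 0.0479, adjusted p = 0.356).

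Cd48 and Slamf1 lie close together on chromosome 1, with 1 protein-coding gene between them in the RefSeq table and the other 7 listed SLAM family genes on the same chromosome. All 7 further SLAM family genes measured (Cd244a, Ly9, Cd84, Slamf6, Slamf7, Slamf8 and Slamf9) had higher values in Lig4mut, where 38.5% of all genes were below 0. Their median difference was 0.39 against 0.18 over all genes. In the values as deposited 6 of the 7 were higher. For Cd244a, Cd84 and Slamf6, 1 of their 2 or 3 probe sets went the other way, and Cd244a itself was at -0.04 as deposited. None had groups apart. Slamf9 differed by 0.55 ± 0.24 (0.28 as deposited) and Cd84 by 0.51 ± 0.36 (0.34 as deposited). At an unadjusted p under 0.05 limma gave 0 of the 7, where 4.18% of all 18193 genes were lower and 15.6% higher at that level. These gene values use the probe set of highest mean for each gene.

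Flt3, the receptor of Flt3 ligand that marks progenitors with lymphoid potential, had its low values in the same arrays as Kit 1415900_a_at. It read 7.88, 7.58 and 7.94 in WT and 7.79, 6.45 and 6.91 in Lig4mut. Lig4mut replicate 1 lay among the WT arrays and replicates 2 and 3 below them, as for 1415900_a_at of Kit. The difference was -0.75 ± 0.37 (SE; 95% interval -1.71 to 0.21; limma adjusted p = 0.379). It was -1.12 without Lig4mut replicate 1 (limma, unadjusted p of 0.00671, adjusted p = 0.133) and -0.45 without Lig4mut replicate 2.

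Cd34, a sialomucin of progenitors and endothelium, read 9.42, 9.52 and 9.97 in WT and 9.71, 9.98 and 8.67 in Lig4mut. Only Lig4mut replicate 3 fell outside the WT range by more than 0.1, on the low side. The difference was -0.18 ± 0.40 (SE; 95% interval -1.21 to 0.84), and it was 0.21 without that array and 0.12 with arrays centred on their medians.

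Procr, the endothelial protein C receptor, is among the surface proteins most enriched on HSC. Its probe set, whose suffix marks probes that may match more than 1 transcript, read 10.80, 10.82 and 11.05 in WT and 10.99, 9.59 and 10.82 in Lig4mut. A single array, Lig4mut replicate 2, stood below the other 5. The difference of -0.42 ± 0.41 (SE; 95% interval -1.48 to 0.64) became 0.02 without it.

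Esam, an adhesion molecule of endothelium and HSC, had 9.33, 9.96 and 9.25 in WT and 9.34, 9.46 and 9.74 in Lig4mut. All 3 Lig4mut values lay inside the WT range. The 95% interval of the difference, -0.62 to 0.62, was the narrowest among the members. In fold terms each bound is 1.54-fold, in this scaling only. With arrays centred on their medians the difference was 0.31 (limma, unadjusted p of 0.26).

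Fgd5, an exchange factor for Cdc42 whose locus is used for HSC reporter mice, read 8.79, 10.14 and 9.80 in WT and 10.52, 10.01 and 8.81 in Lig4mut. A low array occurred in each genotype, WT replicate 1 and Lig4mut replicate 3. The difference was 0.21 ± 0.59 (SE; 95% interval -1.31 to 1.72) and changed sign without either WT replicate 1 (-0.19) or Lig4mut replicate 1 (-0.16).

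Cd27, a costimulatory receptor of the tumour necrosis factor receptor family, read 11.15, 10.89 and 10.98 in WT and 10.94, 10.51 and 11.37 in Lig4mut, so that the Lig4mut arrays lay on both sides of WT. The difference was -0.06 ± 0.25 (SE; 95% interval -0.70 to 0.57).

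**Figure D2:**
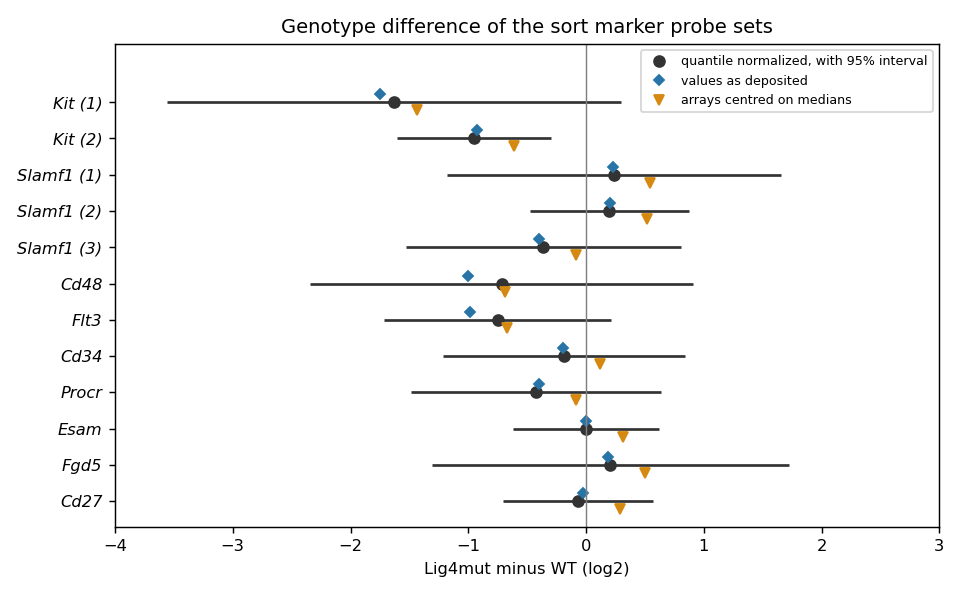
Difference of each member probe set, Lig4mut minus WT (log2, horizontal axis), as black points with 95% limma intervals in the quantile-normalized values, blue diamonds for the values as deposited and orange triangles for arrays centred on medians. The interval of Kit (2), -1.60 to -0.30, is the only one of the 12 that excludes 0, and the triangles lie to the right of the diamonds.

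Over the 12 members, 8 had a difference below 0, with a median of -0.27, where 44.6% of all probe sets were below 0. With dim probe sets left out, which kept all 12, the share of all was 49.2%. The count of members below 0 was 9 in the values as deposited (55.8% of all) and 6 with arrays centred on medians (33.1% of all). The spread between Lig4mut arrays was larger than that between WT arrays for 8 of the 12 members and for 66.8% of all probe sets. The median SD of the members was 0.43 in WT and 0.64 in Lig4mut, against 0.30 and 0.46 over all probe sets.

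One array stood apart among the members. Lig4mut replicate 2 had the lowest of the 6 values for 6 of the 12 members, both Kit probe sets among them, together with Slamf1 1425569_a_at, Flt3, Procr and Cd27. For Kit 1452514_a_at it was lowest by little (9.56 against 9.62 in Lig4mut replicate 1). It was the highest Lig4mut array for Slamf1 1425571_at (9.28) and the highest of all 6 for Cd34 (9.98 against 9.97 in WT replicate 3). As deposited it was also lowest for Cd48, at 5.09. It was lowest for 18.5% of 39826 probe sets with no array within 0.1 of the floor. The summed log2 level of cell type markers was highest in the same array for each of the 8 lists, granulocytes among them. The margin was small for the erythroid list (38.90 against 38.81 in WT replicate 3) and the endothelial list (74.92 against 74.57 in Lig4mut replicate 1). Lig4mut replicate 2 was also the highest array for 23.4% of all probe sets. All 10 granulocyte markers were measured, and their summed log2 level was 108.07 in Lig4mut replicate 2, against 63.25 and 69.45 in the other Lig4mut arrays and 78.47 to 88.79 in WT. The defining markers S100a8 and S100a9, subunits of a neutrophil calcium-binding protein, were both highest there, S100a9 with 13.14 against 6.00 and 6.49 in Lig4mut replicates 1 and 3 and 11.26 to 11.69 in WT. Single markers did not all follow the sums. In Lig4mut replicate 2 the granulocyte marker Ngp read 8.91, below 10.03 in WT replicate 1. The defining endothelial marker Kdr read 8.87 there, below 9.81 in Lig4mut replicate 1. The defining megakaryocyte marker Ppbp, at 3.57 there, was below every WT array. None of the defining markers measured for any of the 8 cell types was at the floor on any array. Without this array Kit 1452514_a_at was at -0.81, Kit 1415900_a_at at -1.10 and Procr at 0.02. The part of these markers in the member values was not tested.

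Summed markers of 3 other kinds of cells lay apart between genotypes in this scaling. The sums were not formed in the values as deposited. The summed level of 8 measured B cell markers of 9 was 48.92 to 49.80 in WT and 51.09 to 57.50 in Lig4mut, and that of 9 macrophage and dendritic cell markers 53.80 to 59.32 and 61.58 to 69.15. For 5 measured T cell markers of 6 it was 23.15 to 24.71 and 25.61 to 28.38. Single markers had groups apart on the higher side for 4 of the 8, 5 of the 9 and 3 of the 5 in turn, against 21.1% of all genes. As deposited 7 of the 8, 7 of the 9 and 5 of the 5 had higher values, often by less. Pax5 went from 0.68 to 0.36, Cd3d from 0.35 to 0.04 and Cd79a from 0.16 to -0.15. The defining B cell markers Cd79a and Cd79b both overlapped between genotypes. For Cd79b, Lig4mut replicate 1 (7.05) lay below the WT arrays (8.58 to 9.05). Of the defining T cell markers, Cd3d and Cd3g overlapped and Cd3e had groups apart. Among the 9 macrophage and dendritic cell markers, H2-Ab1 (2.28), H2-Aa (1.80) and Cd74 (1.36) had the largest differences with groups apart. C1qb (1.46) and C1qa (0.28) overlapped, and Cd68 (-0.14) and Adgre1 (-0.05) were on the lower side. The 8 endothelial markers, of which Cdh5 is also found on HSC, had overlapping ranges of 56.34 to 70.10 in WT, lowest in replicate 1, and 65.44 to 74.92 in Lig4mut. Ranges also overlapped for the 6 megakaryocyte (42.49 to 44.55 and 44.00 to 48.43), the 6 mast cell (25.25 to 28.55 and 27.73 to 30.03) and the 7 measured erythroid markers of 8 (36.21 to 38.81 and 35.44 to 38.90). Single endothelial markers had groups apart on the higher side for 2 of the 8, Pecam1 (1.48) and Cdh5 (1.97), against 21.1% of all genes. WT replicate 1, the array with the highest Cd48, was the lowest in summed endothelial markers. Its Fgd5 value was close to that of Lig4mut replicate 3 (8.79 against 8.81, and 8.80 against 8.76 as deposited). The part of these lists in the member values was not tested either.

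**Figure D3:**
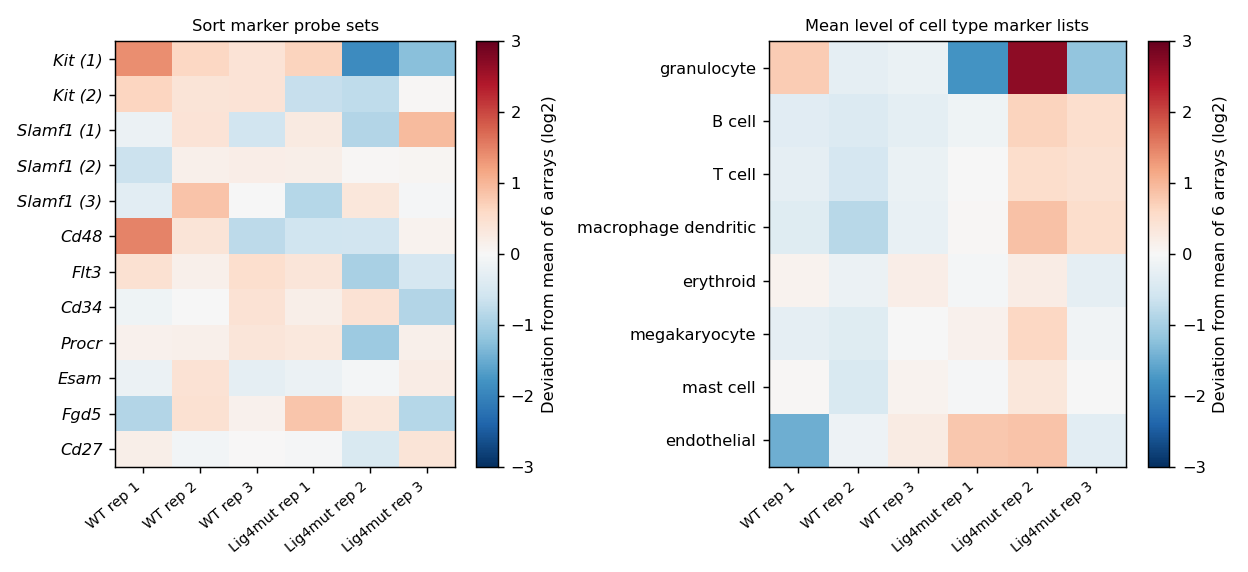
Deviation of each member probe set (left) and of the mean level of each cell type marker list (right) from its mean over the 6 arrays (log2, colour scale from -3 to 3), with arrays in columns. Lig4mut replicate 2 is blue for Kit, Flt3 and Procr and red for the granulocyte list, and WT replicate 1 is red for Cd48 and blue for Fgd5 and the endothelial list.

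Of 16 measured ligands, adaptors and other partners of the members, 7 had lower and 9 higher values (10 and 6 as deposited). In the quantile-normalized values 38.5% of all genes were below 0. At an unadjusted limma p under 0.05, 1 of the 16 was lower and 0 were higher, near the background of 4.18% of all genes on the lower side and under that of 15.6% on the higher side. That gene was Gab2, an adaptor downstream of Kit, at -0.62 ± 0.24 (SE; limma, unadjusted p of 0.0491, adjusted p = 0.252 over genes), with its Lig4mut arrays (8.98, 9.06 and 8.39) below WT (9.26, 9.35 and 9.70). One of its 3 probe sets went the other way, and the difference was -0.34 with arrays centred on medians. F2r, the thrombin receptor through which Procr signals, differed by -0.77 ± 0.37, Cblb, a ubiquitin ligase of the Cbl family, by -1.04 ± 0.51, and Cdc42, the GTPase activated by Fgd5, by -0.33 ± 0.18. With arrays centred on medians F2r was at -0.42 and Cdc42 at 0.01, so that the direction of Cdc42 turned. Kitl, the ligand of Kit, and Cd70, the ligand of Cd27, read between 4.29 and 5.80 on all arrays, with differences of 0.20 ± 0.45 and 0.26 ± 0.25, which were -0.07 and 0.0022 as deposited.

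Other surface proteins of HSC gave 8 lower and 12 higher of 20 measured, where 38.5% of all genes were below 0. At an unadjusted limma p under 0.05 there was 1 in each direction, against 4.18% of all genes on the lower and 15.6% on the higher side. Cxcr4, the receptor that holds HSC in the marrow, read 12.17, 11.90 and 11.91 in WT and 11.37, 11.27 and 11.48 in Lig4mut (-0.62 ± 0.15; limma, unadjusted p of 0.00728, adjusted p = 0.148 over genes). Its 3 Lig4mut arrays were all below WT, and the difference was -0.28 with arrays centred on medians. Itga6, an integrin subunit, differed by 0.82 ± 0.26 with all Lig4mut arrays above WT, though 1 of its 2 probe sets went the other way. Itgb3 differed by -0.76 ± 0.32 and Cd47 by -0.48 ± 0.20, with 1 of 2 and 1 of 5 probe sets going the other way. Cd47 was at -0.13 with arrays centred on medians.

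Labels of HSC other than surface proteins had lower values for 9 of 11 genes, where 38.5% of all genes were below 0. Their median difference was -0.48 against 0.18 over all genes. With arrays centred on medians 6 of 11 had lower values. One of the 11, Gprasp2, was lower at an unadjusted p under 0.05, where 4.18% of all genes were (-1.68 ± 0.56; limma, unadjusted p of 0.0289, adjusted p = 0.205 over genes), with 7.85, 8.01 and 8.28 in WT and 7.50, 5.37 and 6.24 in Lig4mut. Hlf, a transcription factor of HSC, differed by -1.43 ± 0.59 and Mllt3 by -0.70 ± 0.32, which was -0.38 with arrays centred on medians. Vwf, which marks platelet-biased HSC, had a value of 0.70 ± 0.49 in the other direction.

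Surface receptors of more advanced progenitors had higher values for 8 of 9 measured genes (7 of 9 as deposited) and a lower value for 1. In the quantile-normalized values 38.5% of all genes were below 0. At an unadjusted limma p under 0.05, 3 of the 9 were higher, where 15.6% of all genes were. Il7r, the interleukin-7 receptor of lymphoid progenitors, read 3.29, 3.05 and 3.53 in WT and 4.21, 3.71 and 4.34 in Lig4mut (0.79 ± 0.24). Both groups were near the floor. Fcgr3, an Fc receptor of myeloid progenitors, differed by 0.88 ± 0.26 and Csf1r, the receptor of macrophage colony-stimulating factor, by 0.69 ± 0.24 (0.39 as deposited), and Csf2ra by 0.55 ± 0.25. The adjusted p over genes was 0.179, 0.179 and 0.21 for the first 3 (limma). Flt3 thus had values on the opposite side from most of these receptors, a contrast that was not tested.

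Antigens of mature lineages, which a lineage-negative sort removes, could be read for 7 of 13 genes. Of these, 6 had higher values and 1 a lower value, where 38.5% of all genes had values below 0. At an unadjusted limma p under 0.05, 1 was higher, against 15.6% of all genes. Cd3e, a CD3 subunit of the T cell receptor complex, read 3.96, 3.87 and 3.70 in WT and 4.13, 4.67 and 4.29 in Lig4mut (0.52 ± 0.19; limma, unadjusted p of 0.0388, adjusted p = 0.228 over genes). Its values were near the floor in both genotypes. Cd8a differed by 0.58 ± 0.24, Cd3g by 1.02 ± 0.51 and Cd3d by 0.35 ± 0.28. As deposited the differences were smaller, at 0.30 for Cd3e, 0.28 for Cd8a, 0.74 for Cd3g and 0.04 for Cd3d, and 1 of the 5 probe sets of Cd8a went the other way.

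The genes whose 6 values ran closest to those of a gate gene were found by the root mean square difference of their deviations from their own means. Candidates were 15528 genes above the floor on every array, with predicted genes, clones and numbered open reading frames passed over. For Kit 1452514_a_at these were Ptpn2 (0.117), Rassf5 (0.118) and Creg1 (0.129), with a median of 0.796 over all candidates. Each had its 3 Lig4mut arrays below WT, with differences of -0.90, -0.79 and -0.85, which follows from their selection by closeness to Kit. For Slamf1 1425569_a_at they were Emg1 (0.154), Usp10 (0.194) and Fkbpl (0.198), with a median of 0.773. The other Slamf1 probe sets, whose values ran differently, were not used. For Cd48 they were Gprc5b (0.148), Gucy1b1 (0.251) and Scin (0.288), with a median of 0.973. These are descriptions over 6 arrays, with no test.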

How the data were processed

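RNA of sorted HSC was measured on 6 Affymetrix arrays, 3 per genotype, grouped by the sample titles. The deposited values are log2 expression per probe set. Per the submitters' processing notes the authors used RMA, whose version is not stated. The lowest value is 3 on each array, a floor of unstated origin. Of 45101 probe sets, 64 are controls and were left out. Names came from GEO's platform annotation, in which 34945 of the others name 1 gene, and were updated through the RefSeq gene table. Array distributions differed, so values were quantile normalized and each probe set was fitted in limma 3.58.1 under R 4.3.3 (lmFit, eBayes, two-sided, Benjamini-Hochberg over 45037 probe sets, threshold 0.05), after a trial on simulated data. For other lists each gene was represented by its probe set of highest mean over the 6 arrays (18193 genes), and genes of a list are named by the up to 4 smallest p-values; Kitl, Cd70 and S100a8 are named outside that rule, by role. The lists and members were chosen with earlier results of these data known. Arrays have no sequencing depth, and their number limits the precision. An exact permutation test of 3 arrays against 3 cannot give a p below 0.1 and was not run. Deviations of same-numbered arrays from their group means correlated at r = 0.049, 0.012 and -0.023 for replicates 1, 2 and 3, across probe sets, so the numbers were not taken to pair the arrays. Alternatives were other scalings, a replicate block, leaving out each array, a filter on dim probe sets, 1 or averaged probe sets per gene, a variance trend with robust moderation, and array weights.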

Additional observations from a re-analysis of the deposited data

How the results depend on the processing

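Of 174 recomputed member differences, 153 kept their sign and their side of the unadjusted threshold, 16 changed sign, 1 lost it (Kit 1452514_a_at with arrays centred on medians) and 4 passed it. By limma the count of all probe sets past the adjusted threshold was 0, and it was 21 in the values as deposited, 1 with cyclic loess, 1 with a variance trend with robust moderation, 2 with 1 probe set per gene, and 0 without any 1 array, with 5528 to 9115 at an unadjusted p under 0.05. None of the member probe sets was among those calls. The count of members at an unadjusted p under 0.05, 1 in the main setting, was 0 with arrays centred on medians, 2 with the replicate block, which adds 1415900_a_at of Kit (limma, unadjusted p of 0.0338, adjusted p = 0.311), and 1 to 3 without any 1 array. The replicate block changed no other member call. Signs turned only for members whose intervals include 0. With arrays centred on medians Cd34 was at 0.12 and Cd27 at 0.29. Cd27 was at 0.0591 with cyclic loess, and Esam was at -0.0026 in the values as deposited and -0.0246 with array weights. Without an array, ranges that crossed 0 were -0.18 to 0.74 for Slamf1 1425569_a_at, -0.0751 to 0.35 for Slamf1 1425570_at, -0.45 to 0.21 for Cd34, -0.68 to 0.0174 for Procr, -0.13 to 0.22 for Esam, -0.19 to 0.69 for Fgd5 and -0.28 to 0.15 for Cd27. The cause of these moves was not tested.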
